A study of Mus musculus with 24 samples.

Results

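The genes followed here are 9 antagonists, feedback inhibitors and target genes of WNT signalling, namely Sfrp1, Sfrp2, Wif1, Dkk2, Dkk3, Sostdc1, Axin2, Nkd1 and Lef1. They were chosen by name, and each was measured by the probe sets of the array whose single gene symbol was that of the member. They make up 9 of the 20893 genes on the array, and 6 of the 9 lay above the table's median brightness on enough arrays to be tested, as did 10983 genes in all. WNT ligands are secreted proteins that bind Frizzled receptors with an Lrp5 or Lrp6 co-receptor, which stops the destruction of β-catenin and lets it act with LEF and TCF proteins on target genes. Secreted antagonists hold the pathway back outside the cell, some by binding the ligand and others by binding the co-receptor. Axin2 and Nkd1 are switched on by the pathway and then dampen it, so their RNA is often read as a sign of its activity. In the cerebellum, WNT signalling is known for its part in patterning the midbrain and hindbrain, and a separate class of medulloblastoma is driven by it.

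Expression was measured on 24 single-colour Affymetrix arrays, 1 per sample. There were 8 cerebellar tumours of hGFAP:GnasCKO mice and 8 of Oligo1:GnasCKO mice, called hGFAP and Oligo1 tumours here, all of the mixed C57BL/6 x 129 strain, taken at endpoint and recorded as biological replicates. The normal cerebella were wild type, 5 from adults and 3 from developing mice. The adults were, in replicate order, of postnatal day 95 and postnatal day 122 (C57BL/6), of no stated day, and a pair of postnatal day 60 (mixed strain). The developing cerebella, all C57BL/6, were of embryonic day 15, embryonic day 18 and postnatal day 0, with 1 array each, so that the spread of that group includes its change with age. Gnas encodes the stimulatory G protein subunit Gsα, which the title of the series calls a suppressor of Sonic hedgehog medulloblastoma. The array names give hGFAPCre and Oligo1Cre as the drivers of the deletion. The human GFAP promoter is active in neural progenitors and glia, and the labels do not say in which cells either driver acted. The labels name no control that carries Cre or the conditional allele alone. Tumours and developing cerebella differ in strain as well, and the effects of strain and group cannot be told apart there.

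Gnas was lower in both tumour groups. The 8 hGFAP tumours averaged 8.16 ± 0.73 (log2, SD) and the 8 Oligo1 tumours 7.82 ± 0.54, against 9.79 in adult and 9.93 in developing cerebellum, with no overlap between tumour and normal arrays. The labels do not give the deleted part of the gene, and this level is over all its probe sets. Arrays had between 7903 and 9362 genes above the table median. hGFAP tumour 5 had the fewest and stood apart from the other 7 hGFAP tumours. Its Gnas level, 9.33, was the highest of all tumours, under the lowest normal level of 9.69. Its mean level over 7 markers of granule neuron precursors was 7.28, against 9.96 to 10.96 in the other 7, and its mean over 7 markers of mature granule neurons was 11.24, against 7.64 to 10.77 in the other 7 and 11.50 to 11.80 in adult cerebellum. Results that rest on it are given with and without it where its removal moves them. All values are the deposited log2 levels combined per gene, all differences are log2 differences, and each p-value comes from limma, adjusted by Benjamini and Hochberg's method over the 10983 genes of a comparison and called at 0.05. Tissue pieces were measured whole, so fewer cells of a type and less RNA per cell cannot be told apart. Both tumour groups were set against the same adult and developing arrays, and their results against either are therefore not independent.

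Sfrp1, a secreted Frizzled-related protein that binds WNT ligands, showed the largest rise of the tested members against adult cerebellum in both tumour groups. In hGFAP tumours its log2 level was 8.55 at the lowest, 12.08 at the median and 12.30 at the highest. In Oligo1 tumours the lowest was 11.27, the median 11.83 and the highest 12.14. Adult cerebella had 6.19, 6.71, 8.85, 7.38 and 7.42, and developing cerebella had 9.56, 9.19 and 9.80. All 8 Oligo1 tumours and 7 hGFAP tumours lay above every normal array, and hGFAP tumour 5 lay within the adult range. Sfrp1 rose by 4.32 (SE 0.48, adjusted p = 8.67e-07) in hGFAP tumours and by 4.47 (SE 0.48, adjusted p = 1.11e-07) in Oligo1 tumours against adult cerebellum. Of the 5 adult values 4 were under the table median of 7.61, and with that median in place of each the rise was at least 13.6-fold in hGFAP and at least 15.2-fold in Oligo1 tumours. Against developing cerebellum it rose by 2.11 (SE 0.57, 4.32-fold, adjusted p = 0.00717) in hGFAP tumours and by 2.27 (SE 0.57, 4.81-fold, adjusted p = 0.00269) in Oligo1 tumours. Without hGFAP tumour 5 the hGFAP differences were 4.76 from adult and 2.55 from developing cerebellum. With hGFAP tumours 5 to 8 alone, the difference from developing cerebellum was 1.67 (adjusted p = 0.134). In order of mean level the tumour groups came first, developing cerebellum followed and adult cerebellum was last, and the tumour groups were the neighbours that the test did not separate.

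Sfrp2, a paralog of Sfrp1 with the same Frizzled-like domain, was higher in the tumours than in adult cerebellum and was not separated from developing cerebellum. Its level in hGFAP tumours was 6.67 at the lowest, 9.03 at the median and 10.18 at the highest, and in Oligo1 tumours 7.53, 9.20 and 9.29. Adult cerebella had 5.89, 6.30, 6.71, 5.68 and 5.61, all under the table median, and developing cerebella had 9.88, 9.59 and 9.09. Every tumour but hGFAP tumour 5 exceeded every adult array. The rise against adult was 3.02 (SE 0.44, adjusted p = 1.54e-05) in hGFAP tumours and 2.73 (SE 0.44, adjusted p = 1.31e-05) in Oligo1 tumours. Since adult levels were dim, the fold is again a bound: at least 2.72-fold in hGFAP tumours and at least 2.23-fold in Oligo1 tumours. Without hGFAP tumour 5 the hGFAP difference from adult was 3.36. Against developing cerebellum the differences were -0.46 (95% interval -1.56 to 0.63) in hGFAP tumours and -0.75 (-1.84 to 0.34) in Oligo1 tumours, with adjusted p = 0.552 and 0.246. Developing cerebellum and both tumour groups were thus not separated from each other, and adult cerebellum lay below all of them.

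**Figure D1:**
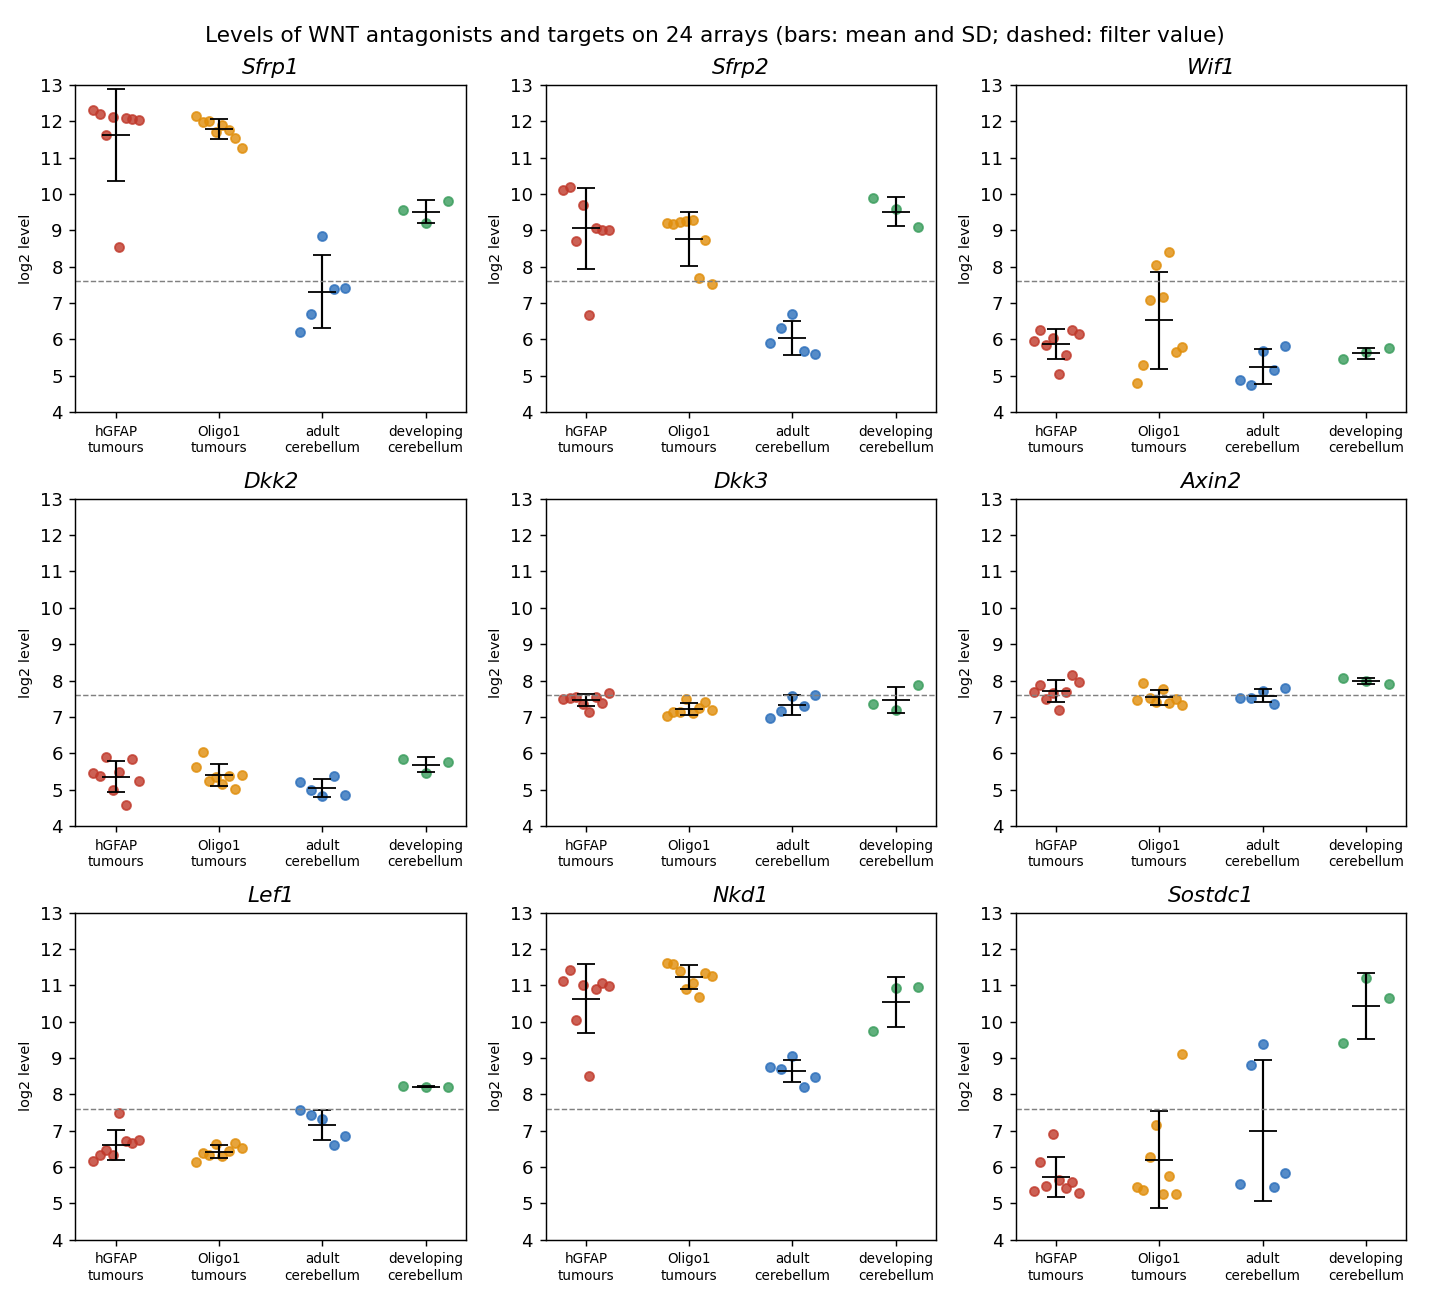
Log2 level of each member gene on every array, with the 4 groups side by side, bars for the group mean and SD and a dashed line at the table median of 7.61. Sfrp1 and Nkd1 of hGFAP tumour 5 lie at 8.55 and 8.50, far below the other hGFAP tumours, and Sostdc1 of the 3 developing arrays lies above all tumours.

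The gene levels of Wif1, Dkk2 and Dkk3 were dim and entered no test, although 4 of the 11 probe sets of Wif1 and 4 of the 9 of Dkk3 had a mean above the table median in at least 1 group. Wif1, which binds WNT ligands directly, passed the table median in 2 arrays, both Oligo1 tumours. hGFAP tumours had levels from 5.04 to 6.25 with a median of 5.99, and Oligo1 tumours had 4.79, 5.30, 7.09, 8.04, 7.17, 8.40, 5.65 and 5.78 in replicate order. Adult cerebella had 4.87, 4.74, 5.69, 5.15 and 5.82, and developing cerebella 5.46, 5.65 and 5.76. Oligo1 tumours 3 to 6 were thus above every other array, and the other 4 Oligo1 tumours lay between 4.79 and 5.78. When all 20893 genes were fitted without a brightness minimum, Wif1 differed from adult by 1.27 in Oligo1 tumours (limma adjusted p = 0.023) and by 0.63 in hGFAP tumours (adjusted p = 0.307). Dkk2, which binds the Lrp5 and Lrp6 co-receptors, lay under the table median on all 24 arrays, with means of 5.36 in hGFAP tumours, 5.40 in Oligo1 tumours, 5.05 in adult and 5.69 in developing cerebellum. Without the brightness minimum the Dkk2 difference of adult from developing cerebellum was -0.64 (limma adjusted p = 0.0438), where 6380 of the 20893 genes passed. Dkk2 passed in no other comparison. Dkk3, which despite its name acts little or not at all on those co-receptors, had means of 7.46, 7.21, 7.32 and 7.47 in the same order and ranged from 6.96 to 7.88 over all arrays. For Dkk3 no comparison passed without the brightness minimum, the lowest adjusted p being 0.137.

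Sostdc1, a secreted protein that binds both bone morphogenetic proteins and the LRP co-receptors, was low in nearly all tumours and high in developing cerebellum. hGFAP tumours had 5.30 at the lowest, 5.54 at the median and 6.91 at the highest, and Oligo1 tumours had 5.26, 5.61 and 9.11. Adult cerebella had 5.52, 8.82, 9.39, 5.45 and 5.83, and developing cerebella had 9.42, 11.21 and 10.65. The adult group was split, with the array of postnatal day 122 and the array of no stated day far above the other 3, and Oligo1 tumour 8 was the only tumour above the table median. Sostdc1 fell by 4.70 (SE 0.80, adjusted p = 0.000108) in hGFAP tumours against developing cerebellum, with no overlap. It fell by 4.22 there in the Oligo1 group (SE 0.80, adjusted p = 0.000214), again with no overlap. All 8 hGFAP and 7 of the 8 Oligo1 values were dim, and with the table median in place of each, Sostdc1 was at least 7.04-fold lower in hGFAP and at least 6.18-fold lower in Oligo1 tumours. Against adult cerebellum the differences were -1.27 (95% interval -2.66 to 0.12, adjusted p = 0.113) in hGFAP tumours and -0.79 (-2.18 to 0.60, adjusted p = 0.295) in Oligo1 tumours. Developing cerebellum was therefore separated from the other 3 groups, and those 3 were not separated from each other.

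Sostdc1 is known as a gene of the choroid plexus, the tissue that makes cerebrospinal fluid in the fourth ventricle beside the cerebellum, and markers of that tissue moved with it. The mean level of 9 choroid plexus markers was 5.69 to 7.95 in hGFAP tumours, 5.97 to 8.21 in Oligo1 tumours, 5.83 to 8.44 in adult and 7.73 to 9.42 in developing cerebellum. The same adult arrays that were high in Sostdc1 had the highest adult marker means, 8.28 and 8.44, against 5.83 to 6.39 in the other 3. Oligo1 tumour 8 had the highest marker mean of the tumours, 8.21. Against developing cerebellum, 3 of the 5 tested markers fell and none rose in either tumour group, namely Ttr, Slc4a5 and Kcnj13. Of all tested genes 13.3% fell there in hGFAP and 19.9% in Oligo1 tumours. Kl and Otx2, also tested, did not pass there. Slc4a5 had a mean above the table median only in developing cerebellum, and Kcnj13 only in the normal groups. The count of fallen markers thus supports nothing about the list as a set. The transthyretin gene Ttr fell by 5.05 in hGFAP tumours (adjusted p = 0.0406) and fell by 4.97 in Oligo1 tumours (adjusted p = 0.0291). The other markers, Folr1, Clic6, Aqp1 and Cldn2, were too dim to be tested, and between 0 and 4 of the 9 markers passed the table median in a tumour, against 4 to 8 in a developing array. Over the 16 tumours, after each tumour group's mean was subtracted, Sostdc1 and the marker mean correlated at 0.87, and at 0.89 over 15 tumours without hGFAP tumour 5. The part of choroid plexus tissue in the Sostdc1 differences was not tested.

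**Figure D2:**
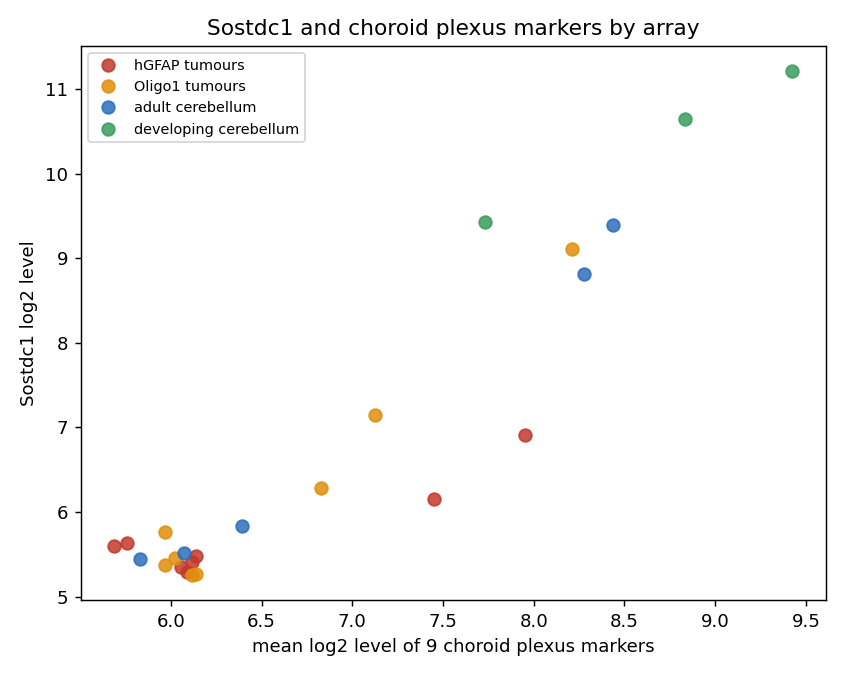
Sostdc1 log2 level (y) against the mean log2 level of 9 choroid plexus markers (x), 1 point per array, coloured by group. The 3 developing arrays and the adult arrays at 8.82 and 9.39 lie to the upper right, and most tumours lie at the lower left.

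Axin2, the scaffold of the β-catenin destruction complex that the pathway itself induces, varied little and rose in no comparison. hGFAP tumours had 7.20 at the lowest, 7.69 at the median and 8.15 at the highest, and Oligo1 tumours had 7.32, 7.48 and 7.92. Adult cerebella had 7.53, 7.52, 7.71, 7.36 and 7.80, and developing cerebella had 8.06, 8.00 and 7.90. The tumour and adult ranges covered each other, and 7 of the 8 Oligo1 tumours lay below the lowest developing array. In Oligo1 tumours Axin2 fell by 0.45 (SE 0.15, adjusted p = 0.02) against developing cerebellum, at least 1.25-fold lower with the 6 dim Oligo1 values at the table median. This call was lost without the embryonic day 15 array (adjusted p = 0.0853), without the embryonic day 18 array (0.0622), with Oligo1 tumours 5 to 8 alone (0.0623) and with a 2-fold minimum. In hGFAP tumours the difference from developing cerebellum was -0.27 (95% interval -0.59 to 0.04, adjusted p = 0.196), and it passed with array weights (-0.25, adjusted p = 0.0241). The differences from adult were 0.13 (-0.14 to 0.40) in hGFAP tumours and -0.05 (-0.31 to 0.22) in Oligo1 tumours, with adjusted p = 0.41 and 0.758. In order of mean level developing cerebellum came first, and among the other 3 groups no pair was separated.

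Nkd1, a cytoplasmic inhibitor that binds Dishevelled and is itself a common WNT target, rose with Sfrp1 and Sfrp2 against adult cerebellum. Its level in hGFAP tumours was 8.50 at the lowest, 10.99 at the median and 11.42 at the highest, and in Oligo1 tumours 10.68, 11.31 and 11.61. Adult cerebella had 8.75, 8.70, 9.05, 8.21 and 8.49, and developing cerebella had 9.75, 10.93 and 10.95. All tumours but hGFAP tumour 5 exceeded every adult array, while the developing arrays lay among the tumours or, at embryonic day 15, below most of them. Nkd1 rose by 1.99 (SE 0.35, 3.98-fold, adjusted p = 9.35e-05) in hGFAP tumours and by 2.59 (SE 0.35, 6.02-fold, adjusted p = 1.5e-06) in Oligo1 tumours against adult cerebellum, and by 2.30 in hGFAP tumours without tumour 5. Against developing cerebellum the differences were 0.09 (95% interval -0.77 to 0.95, adjusted p = 0.899) in hGFAP tumours and 0.69 (-0.17 to 1.54, adjusted p = 0.176) in Oligo1 tumours. The Oligo1 difference passed without hGFAP tumour 5 and Oligo1 tumour 6 (0.76, adjusted p = 0.0159), with array weights (0.47, adjusted p = 0.0273) and with Oligo1 tumours 1 to 4 alone (0.82, adjusted p = 0.0416). It was 0.29 (adjusted p = 0.657) without the embryonic day 15 array, and the hGFAP difference was -0.31 without that array and 0.39 without hGFAP tumour 5. Tumour groups and developing cerebellum were not separated from each other, and adult cerebellum lay below all of them.

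Lef1, one of the transcription factors through which β-catenin acts and a target of the pathway as well, was bright only in developing cerebellum. hGFAP tumours had 6.16 at the lowest, 6.57 at the median and 7.48 at the highest, and Oligo1 tumours had 6.13, 6.41 and 6.67. Adult cerebella had 7.56, 7.43, 7.32, 6.62 and 6.86, and developing cerebella had 8.22, 8.20 and 8.20. The 3 developing arrays were the only ones above the table median, so that Lef1 was tested only through that group. It fell by 1.59 (SE 0.21, at least 1.51-fold lower, adjusted p = 5.39e-06) in hGFAP tumours and by 1.78 (SE 0.21, at least 1.51-fold lower, adjusted p = 7.65e-07) in Oligo1 tumours against developing cerebellum, with no overlap. Against adult cerebellum, where both sides were dim and no fold is given, it fell by 0.54 (SE 0.18, adjusted p = 0.0129) in hGFAP tumours and by 0.73 (SE 0.18, adjusted p = 0.000883) in Oligo1 tumours. The hGFAP call against adult was lost without the adult array of postnatal day 95 (-0.44, adjusted p = 0.0515), with the mixed-strain adults alone (-0.32, adjusted p = 0.203) and with hGFAP tumours 5 to 8 alone (-0.26, adjusted p = 0.337). It was also lost with the median of probe sets (-0.49, adjusted p = 0.0726), with only the groups compared (-0.54, adjusted p = 0.0501) and with a 2-fold minimum, which ended the Oligo1 call too, and without hGFAP tumour 5 it was -0.67. Developing cerebellum came first in mean level, adult cerebellum next and the tumour groups last, and the tumour groups were not separated from each other.

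Lef1 is also expressed by endothelial cells, and endothelial markers were lower in the tumours than in developing cerebellum. The mean of 9 endothelial markers was 7.24 to 7.91 in hGFAP tumours, 7.47 to 8.18 in Oligo1 tumours, 7.73 to 8.28 in adult and 8.15 to 8.83 in developing cerebellum. Against developing cerebellum, 7 of the 9 fell and 1 rose in hGFAP tumours, and 6 fell in Oligo1 tumours. Of all tested genes 13.3% and 19.9% fell there. Of 7 meningeal fibroblast markers, 5 fell there in each tumour group. The endothelial markers Kdr, Pecam1, Tek and Esam had means above the table median only in developing cerebellum. So did the fibroblast markers Col1a1, Col1a2 and Col3a1. These counts against developing cerebellum thus support nothing about either marker list as a set. Against adult cerebellum 3 of the 9 endothelial markers fell in each tumour group and 1 rose in Oligo1 tumours, where 29.8% and 34.5% of all tested genes fell. Lef1 and the endothelial mean correlated at 0.39 over the 16 tumours after group means were subtracted, and at 0.60 without hGFAP tumour 5. Other marker lists gave similar or larger values. Over the 16 tumours Lef1 correlated at -0.82 with granule neuron precursor, 0.53 with oligodendrocyte and 0.47 with mature granule neuron markers. Without hGFAP tumour 5 these were -0.39, 0.50 and 0.29. It then correlated at 0.54 with astrocyte and Bergmann glia and 0.52 with meningeal fibroblast markers. Markers of granule neuron precursors, the cells from which tumours of the Sonic hedgehog class arise, rose against adult cerebellum, as did Sfrp1, Sfrp2 and Nkd1. All 7 rose there in both tumour groups, where 24.2% of all tested genes were higher in hGFAP and 35.8% in Oligo1 tumours. Their mean was 7.28 to 10.96 in hGFAP tumours and 10.49 to 11.11 in Oligo1 tumours. It was 6.03 to 6.19 in adult and 9.03 to 9.93 in developing cerebellum. Against developing cerebellum, where Sfrp1 rose in both tumour groups, Gli1 alone of the 7 passed in hGFAP tumours, and it rose. In Oligo1 tumours Atoh1, Barhl1, Mycn and Gli1 rose there, and Mki67, Top2a and Dcx did not pass. Dcx lay wholly below developing cerebellum in both tumour groups. In adult cerebellum none of the 7 passed the table median on any array, so that all 7 were tested only through the other groups. Their count against adult cerebellum thus supports nothing about them as a set. The mean of 8 microglia and macrophage markers was also higher in the tumours, at 7.21 to 9.46 in hGFAP and 8.88 to 10.01 in Oligo1 tumours, against 6.75 to 7.42 in adult and 6.56 to 7.17 in developing cerebellum. Over the 16 tumours, after group means were subtracted, the granule precursor mean correlated with Sfrp1 at 0.97, with Nkd1 at 0.95 and with Sfrp2 at 0.84. Without hGFAP tumour 5 these values were 0.72, 0.81 and 0.69. The microglia mean correlated at 0.85 with Sfrp1, 0.75 with Nkd1 and 0.73 with Sfrp2 over the 16 tumours, and at 0.10, -0.02 and 0.30 without hGFAP tumour 5. The part of these cell types in the differences of the members was not tested.

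The windows around the transcription starts of the members tell which of them carry letters that LEF and TCF proteins are known to bind, and those of the members that moved with developing or tumour tissue are printed for that reason. The windows span 250 bases before to 50 after the start, from a table of RefSeq starts on GRCm38.p6, and those of 6 of the 9 members were used. Windows of Sfrp1, Dkk3 and Sostdc1 were not used here. The letters searched on both strands were CTTTGAA, with the last base also as in CTTTGAT, and with the last pair also as in CTTTGTA or as in the variant CTTTGTT. Capitals mark a match. All 5 windows below lie on the plus strand.
Sfrp2, chr3:83766071-83766370: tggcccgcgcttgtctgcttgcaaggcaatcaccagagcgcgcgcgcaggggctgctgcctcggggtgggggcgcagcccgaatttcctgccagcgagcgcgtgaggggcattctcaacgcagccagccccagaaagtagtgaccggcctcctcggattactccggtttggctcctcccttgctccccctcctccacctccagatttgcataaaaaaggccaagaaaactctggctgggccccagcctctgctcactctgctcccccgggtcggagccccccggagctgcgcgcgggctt
Nkd1, chr8:88527383-88527682: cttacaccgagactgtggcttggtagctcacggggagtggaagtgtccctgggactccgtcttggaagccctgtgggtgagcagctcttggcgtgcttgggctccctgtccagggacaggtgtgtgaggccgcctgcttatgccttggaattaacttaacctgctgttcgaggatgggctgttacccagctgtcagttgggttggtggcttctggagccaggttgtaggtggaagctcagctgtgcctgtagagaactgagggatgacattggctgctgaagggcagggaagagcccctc
Axin2, chr11:108920099-108920398: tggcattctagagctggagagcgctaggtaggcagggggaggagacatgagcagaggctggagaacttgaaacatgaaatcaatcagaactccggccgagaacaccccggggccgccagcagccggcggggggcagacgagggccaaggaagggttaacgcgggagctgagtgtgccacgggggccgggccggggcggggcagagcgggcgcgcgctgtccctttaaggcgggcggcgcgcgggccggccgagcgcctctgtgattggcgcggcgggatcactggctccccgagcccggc
Lef1 upstream start, chr3:131110047-131110346: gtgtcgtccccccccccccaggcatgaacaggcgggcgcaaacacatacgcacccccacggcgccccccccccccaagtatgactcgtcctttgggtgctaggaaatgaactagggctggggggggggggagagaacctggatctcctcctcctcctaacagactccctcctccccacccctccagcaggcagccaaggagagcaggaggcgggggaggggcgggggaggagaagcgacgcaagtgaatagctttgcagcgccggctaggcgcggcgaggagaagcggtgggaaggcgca
Lef1 downstream start, chr3:131156044-131156343: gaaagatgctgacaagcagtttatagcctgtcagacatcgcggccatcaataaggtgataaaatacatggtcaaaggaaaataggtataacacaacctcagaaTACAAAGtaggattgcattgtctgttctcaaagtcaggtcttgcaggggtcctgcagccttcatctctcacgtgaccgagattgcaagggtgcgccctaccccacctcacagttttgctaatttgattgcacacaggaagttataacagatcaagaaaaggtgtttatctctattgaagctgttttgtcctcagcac
Among the 9 windows of these 6 members, 1 held a match, that of the downstream Lef1 start. It is CTTTGTA on the minus strand, which reads TACAAAG on the printed strand, 147 to 141 bases before the start. Of all 32851 windows in the table, 5544 (16.9%) held one, so that a match in 1 of 9 is near the share of all windows. Windows of Sfrp2, Axin2 and the upstream Lef1 start were rich in G and C, at 66.0%, 70.0% and 67.3%, with 22, 31 and 18 CpG pairs, against medians of 52.7% and 7 over all windows. The Nkd1 window had 58.3% and 6 CpG pairs, and the downstream Lef1 window 43.7% and 5. A match is a description of letters and not a binding site, and its absence concerns only these windows.

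The members moved in different directions. Against adult cerebellum, Sfrp1, Sfrp2 and Nkd1 rose in both tumour groups and Lef1, dim on every array of these groups, fell, while Axin2 and Sostdc1 did not pass and Wif1, Dkk2 and Dkk3 were not tested. Of all tested genes 54% passed in hGFAP tumours (24.2% higher, 29.8% lower) and 70.2% in Oligo1 tumours (35.8% higher, 34.5% lower), so that 4 of 6 members is near the share of all genes. In Oligo1 tumours Sfrp1, Sfrp2 and Nkd1 did not overlap with adult cerebellum, as 26.1% of all genes did not with the tumours higher. Against developing cerebellum, Sfrp1 rose and Lef1 and Sostdc1 fell in both tumour groups, and Axin2 fell in Oligo1 tumours. Of all tested genes 28.3% passed there in hGFAP tumours (15% higher, 13.3% lower) and 47.5% in Oligo1 tumours (27.5% higher, 19.9% lower). Lef1 and Sostdc1 lay wholly below developing cerebellum in both tumour groups, as 11.4% of all genes did in hGFAP and 16.8% in Oligo1 tumours, and Sfrp1 lay wholly above it in Oligo1 tumours, as did 25.3%. Lef1 and Sostdc1 entered the tests through the normal arrays where they were bright, so that these counts support nothing about the members as a set. The median difference of the 6 tested members was 1.06 in hGFAP and 1.27 in Oligo1 tumours against adult cerebellum, where the medians of all genes were -0.02 and 0.04. Against developing cerebellum it was -0.37 and -0.60, where the medians of all genes were 0.06 and 0.12. Lef1 and Sostdc1 enter these medians as well, so the medians too support nothing about the members as a set.

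**Figure D3:**
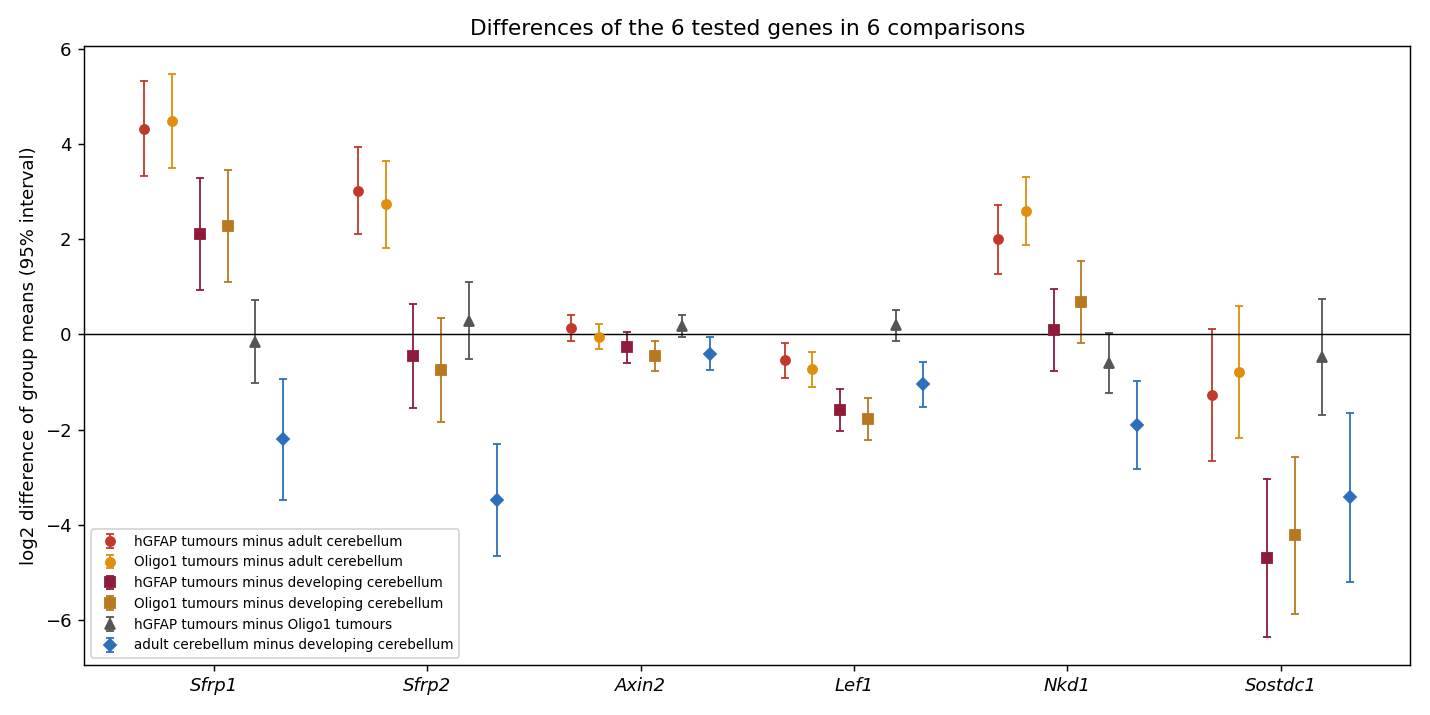
Log2 difference of group means (y) of the 6 tested members in the 6 comparisons, each marked by its colour and shape, with bars for the 95% interval. Sfrp1 lies above 0 in all 4 comparisons of tumours with normal cerebellum, and Sostdc1 lies lowest against developing cerebellum, at -4.70 in hGFAP and -4.22 in Oligo1 tumours.

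Between the tumour groups, no member passed limma's test in the comparison of hGFAP with Oligo1 tumours, where 18.9% of all tested genes did. At an unadjusted limma p under 0.05, 0 of the 6 passed, where 4404 of the 10983 tested genes did. Leaving out single arrays moved the number of all genes called there, 2076, to between 521 and 3174, and no member was called in any of these fits. The differences were -0.16 for Sfrp1 (95% interval -1.03 to 0.71), 0.29 for Sfrp2 (-0.52 to 1.09) and 0.18 for Axin2 (-0.06 to 0.41). They were 0.19 for Lef1 (-0.13 to 0.51), -0.60 for Nkd1 (-1.23 to 0.04) and -0.48 for Sostdc1 (-1.70 to 0.74). These intervals leave room for changes of more than 1 log2 unit in Sfrp1, Sfrp2, Nkd1 and Sostdc1. The difference of Sfrp1 turned to 0.28 without hGFAP tumour 5. The largest spread within a group was that of Sostdc1 in adult cerebellum (SD 1.93), and Wif1 and Sostdc1 in Oligo1 tumours had SDs of 1.33 and 1.34.

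In normal tissue, 5 of the 6 tested members were lower in adult than in developing cerebellum, where 45.7% of all tested genes passed and 20.2% were lower. Lef1 is counted here although it was tested only through the developing arrays, where it is high, so the count supports nothing about the set. Sfrp2 fell by 3.48 (SE 0.57, at least 3.75-fold lower, adjusted p = 3.95e-05) and Sostdc1 fell by 3.42 (SE 0.86, at least 4.65-fold lower, adjusted p = 0.00256). Sfrp1 fell by 2.21 (SE 0.61, at least 3.16-fold lower, adjusted p = 0.00552), Nkd1 by 1.90 (SE 0.45, 3.74-fold lower, adjusted p = 0.00146) and Lef1 by 1.05 (SE 0.23, at least 1.51-fold lower, adjusted p = 0.000695). For Axin2 the difference was -0.40 (SE 0.17, adjusted p = 0.0505), and it passed under 5 alternatives: without the second adult array of postnatal day 60 (0.0379), with renewed quantile normalization (0.0488), centred arrays (0.00929), array weights (0.00173) and only the groups compared (0.0131). All 6 had adult and developing arrays that did not overlap, which 26.1% of all tested genes showed with adult lower. The labels used here give no age for the tumours.

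Single probe sets of a member mostly moved alike, as judged by a limma fit over all 241576 probe sets, of which 28.9% and 43.4% passed against adult and 13.9% and 24.5% against developing cerebellum in hGFAP and Oligo1 tumours. All 5 probe sets of Sfrp1 rose in each of these 4 comparisons, and all 10 of Nkd1 rose in both against adult. Of the 4 probe sets of Sfrp2, 3 rose against adult in both tumour groups. Of the 17 probe sets of Lef1, 15 fell in hGFAP tumours and 17 in Oligo1 tumours against developing cerebellum, and 4 and 10 fell against adult. All 4 of Sostdc1 fell in both tumour groups against developing cerebellum and none passed against adult. Of the 14 probe sets of Axin2, 2 fell in hGFAP and 4 in Oligo1 tumours against developing cerebellum, and 1 rose in hGFAP tumours against adult. Of the 11 probe sets of Wif1, 5 rose in Oligo1 tumours against adult and 1 against developing cerebellum, where 1 of Nkd1 rose too. Against adult, 1 of the 4 of Dkk2 rose in each tumour group and 1 of the 9 of Dkk3 in hGFAP tumours.

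**Figure D4:**
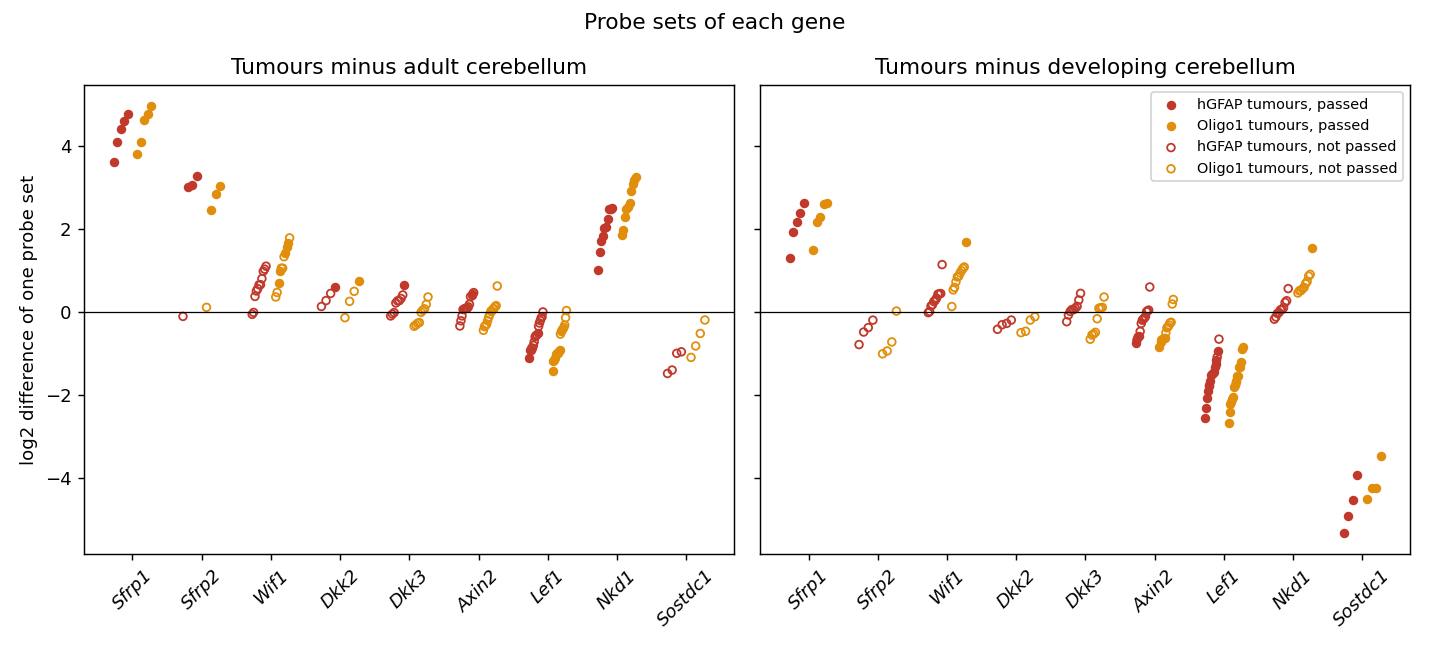
Log2 difference (y) of every probe set of the 9 members in hGFAP and Oligo1 tumours, against adult cerebellum on the left and developing cerebellum on the right, 1 point per probe set, filled where it passed over all 241576 probe sets. Against adult the 5 probe sets of Sfrp1 lie between 3.59 and 4.76 in hGFAP tumours and between 3.79 and 4.95 in Oligo1 tumours, while those of Axin2 lie on both sides of 0.

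Likeness to a member was judged by Pearson's r of log2 levels over the 24 arrays, which group differences can raise. Within the tumour groups hGFAP tumour 5 raised these r values for all tested members but Sostdc1. The 3 genes most like each tested member are named here. For Sfrp1 they were Rassf4 (r = 0.98), C1ql1 (0.97) and Epb41l2 (0.97), with 0.49, 0.45 and 0.68 within the tumour groups over 15 tumours without hGFAP tumour 5. For Sfrp2 they were Sh3bgrl (0.95), Frmd4a (0.95) and Flrt2 (0.94), with 0.70, 0.69 and 0.81 within the tumour groups on the same basis. For Nkd1 they were Asf1b (0.98), Knstrn (0.98) and Prc1 (0.97), with 0.73, 0.81 and 0.75. For Axin2 they were Eif4ebp2 (0.81), Mpped2 (0.80) and Ppp1r1a (0.78), the weakest likeness of the 6, with 0.78, 0.61 and 0.54. For Lef1 they were Fam189a1 (0.96), Ptpn5 (0.94) and Tanc2 (0.93), with 0.74, 0.54 and 0.58. For Sostdc1 they were Slc4a5 (0.96), Car12 (0.92) and Slc2a12 (0.91), with 0.90, 0.87 and 0.87, and Slc4a5 is also among the choroid plexus markers. Among the members themselves, Nkd1 with Sfrp1 had r = 0.58, Sfrp1 with Sfrp2 0.73 and Lef1 with Sfrp1 -0.56 within the tumour groups over these 15 tumours, and 0.91, 0.83 and -0.85 over all 16. For the 18 genes named, the values within the tumour groups over all 16 tumours ranged from 0.73 (Ppp1r1a) to 0.95 (Rassf4).

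The rest of the pathway was read from lists of 92 other genes, of which 49 were bright enough to be tested. In hGFAP tumours against adult cerebellum 18 rose, 7 fell and 24 did not pass, where 24.2% of all tested genes were higher and 29.8% lower. In Oligo1 tumours 23 rose, 9 fell and 17 did not pass, where 35.8% of all tested genes were higher and 34.5% lower. Against developing cerebellum 4 rose and 11 fell in hGFAP tumours, where 15% of all were higher and 13.3% lower. In Oligo1 tumours 10 rose and 15 fell there, against 27.5% higher and 19.9% lower of all genes. The median difference of the 49 was 0.23 and 0.29 against adult and -0.13 and -0.01 against developing cerebellum in hGFAP and Oligo1 tumours. Some of the 49, such as Wnt7a, Wnt5a and Nkd2, had a mean above the table median only in a normal group. These counts and medians thus support nothing about the pathway as a set.

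Of the 4 other tested antagonists, 3 rose against adult cerebellum in both tumour groups. Of all tested genes 24.2% were higher there in hGFAP and 35.8% in Oligo1 tumours. Shisa2, among the 3, had a mean above the table median only in the tumour groups. The count thus supports nothing about the antagonists as a set. Draxin, an axon guidance protein that also acts as a WNT antagonist, rose by 4.79 in hGFAP tumours (adjusted p = 1.5e-07) and by 5.29 in Oligo1 tumours (adjusted p = 1.48e-08). These log2 differences were larger than those of Sfrp1, 4.32 and 4.47. The adult means of Draxin, 6.03, and Sfrp1, 7.31, were both under the table median, so the folds of these genes are not ranked. Against developing cerebellum the Draxin differences were 0.35 and 0.86 and did not pass. Shisa2, which holds back Frizzled receptors inside the cell, rose against both normal stages, by 1.25 in hGFAP and 1.54 in Oligo1 tumours against adult and by 1.25 and 1.53 against developing cerebellum. Apcdd1, a membrane inhibitor and WNT target, rose by 0.60 and 0.66 against adult and fell by 1.21 and 1.15 against developing cerebellum. Kremen1, a co-receptor for Dickkopf proteins, did not pass in any of these 4 comparisons.

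Among the 5 tested genes of ligands and their secretion, Wnt7a, a ligand of granule neurons, fell by 2.35 in hGFAP tumours and by 3.03 in Oligo1 tumours against adult cerebellum, and Porcn, the enzyme that attaches the lipid to WNT proteins, fell by 0.86 and 1.54. Wls, which carries WNT proteins to the cell surface, rose by 0.65 and 0.79. Wnt4 rose by 0.79 and 1.45, but between dim means. These were 6.72 in hGFAP tumours, 7.38 in Oligo1 tumours and 5.93 in adult cerebellum. Wnt5a, a ligand known mainly for signalling without β-catenin, fell by 1.83 in hGFAP tumours and fell by 2.18 in Oligo1 tumours against developing cerebellum. Of the 9 tested receptors, 6 were higher and 1 lower in hGFAP tumours than in adult cerebellum, and in Oligo1 tumours 7 were higher and 1 lower, where 54% and 70.2% of all tested genes passed in either direction. Fzd2 rose most, by 2.24 and 2.85, from a dim adult mean of 4.95. Its mean was still dim in hGFAP tumours, at 7.19, and was 7.80 in Oligo1 tumours, so this rank rests in part on dim values. Fzd7 was higher than developing cerebellum by 2.07 in hGFAP and 2.08 in Oligo1 tumours. In the R-spondin axis of 4 tested genes, Lgr4 fell by 0.92 and 1.02 against adult, and Lgr5 rose by 1.39 in hGFAP tumours against developing cerebellum.

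Of the 10 tested nuclear genes, 5 fell in hGFAP and 6 in Oligo1 tumours against developing cerebellum and none rose, where 13.3% and 19.9% of all tested genes fell. Tcf7l1, a relative of Lef1, fell by 1.35 in hGFAP tumours and fell by 1.30 in Oligo1 tumours. Its paralog Tcf7l2 fell by 1.62 in hGFAP tumours and fell by 1.61 in Oligo1 tumours. Against adult, the corepressor gene Tle1 rose by 1.40 and 1.82, and Tle2 fell by 0.96 in hGFAP tumours and fell by 1.30 in Oligo1 tumours. Of the 13 cytoplasmic genes, Csnk1e rose by 0.82 and 0.86 against adult, and Apc2 fell by 0.74 in hGFAP tumours and fell by 1.28 in Oligo1 tumours against developing cerebellum. Of the 8 other targets tested, 4 rose and none fell in each tumour group against adult. Of all tested genes 24.2% were higher and 29.8% lower there in hGFAP tumours. In Oligo1 tumours 35.8% were higher and 34.5% lower. Myc and Ccnd1, targets of many pathways, rose by 3.22 and 2.54 in hGFAP tumours and by 3.89 and 3.15 in Oligo1 tumours. Nkd2, the paralog of Nkd1 and among the 4 that rose, was higher by 0.38 and 0.35 against adult. Its means were dim in these groups, at 6.21 in hGFAP tumours, 6.18 in Oligo1 tumours and 5.83 in adult cerebellum. Against developing cerebellum it fell by 1.63 and 1.66, where Nkd1 did not pass. That was the only group where the Nkd2 mean passed the table median (7.84), so the fall supports nothing about the pathway. In the comparison of hGFAP with Oligo1 tumours 3 of the 49 were higher and 4 lower, where 18.9% of all tested genes passed. They were led by Ror2, a receptor for Wnt5a, which fell by 0.89 (adjusted p = 0.000292).

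**Figure D5:**
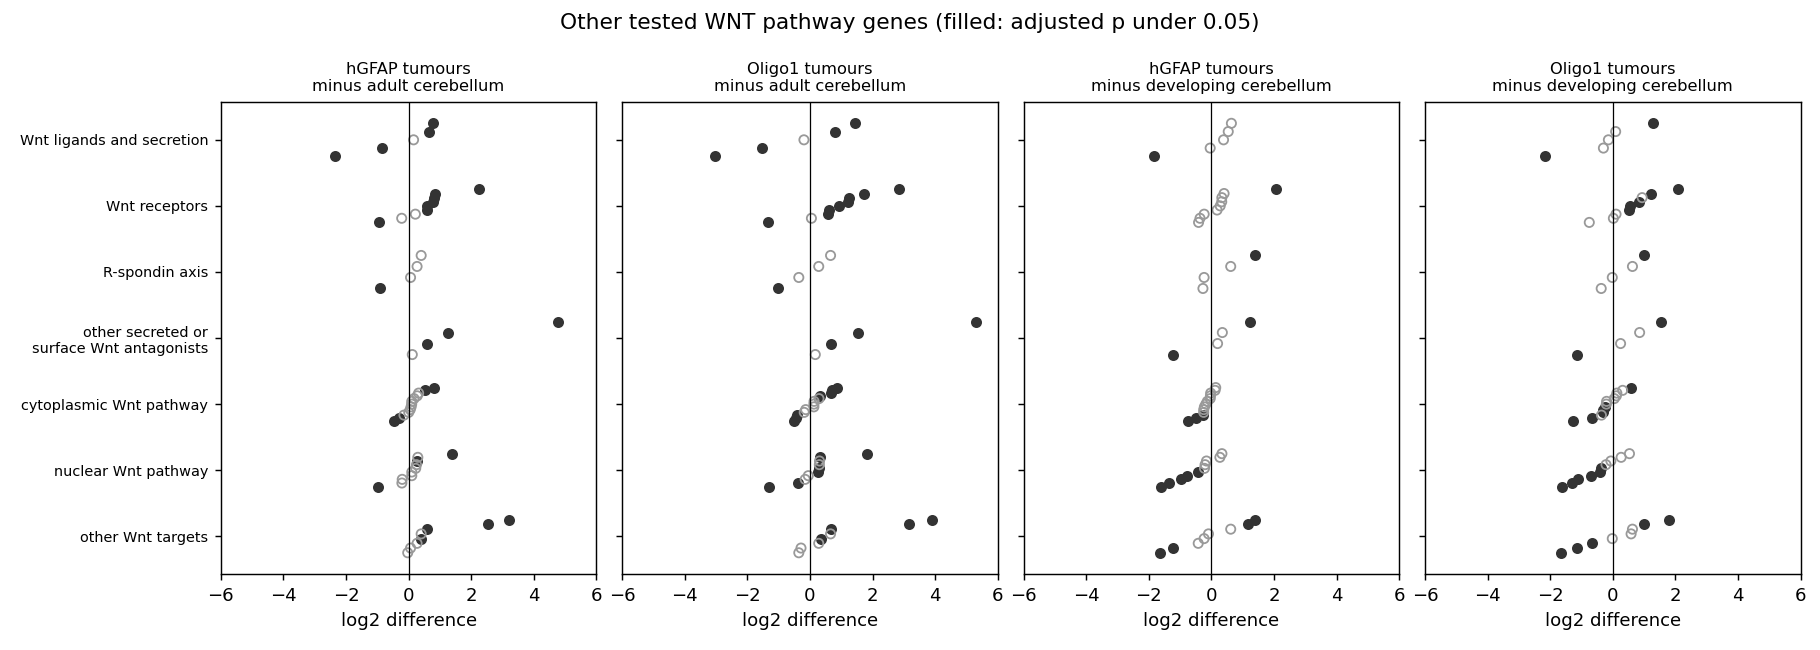
Log2 difference (x) of each tested gene of the 7 lists of other WNT pathway genes, in 4 comparisons of tumours with normal cerebellum, filled where the adjusted p was under 0.05, with 4 target genes that also stand in other lists. Against adult cerebellum 6 of 9 receptors were higher in hGFAP tumours, as were 24.2% of all tested genes. Against developing cerebellum 5 of 10 nuclear genes were lower in hGFAP tumours, as were 13.3% of all.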

How the data were processed

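RNA extracted with TRIzol and labelled with biotin was hybridised to Affymetrix arrays of 1 colour, per the labels' protocols. For each of 241576 probe sets the authors deposited a log2 value from the robust multi-array average (RMA). The submitters' processing notes name oligo 1.14 and R 2.15 for this step. RMA corrects background and quantile normalizes across arrays, so differences are relative. The sources used here do not give the annotation, scan dates or genome build.

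Symbols came from the platform annotation: 213361 probe sets had 1 symbol, 5107 several and 23108 none, and only those with 1 were used. Median polish joined the probe sets of a symbol (median 8) to 20893 genes, and 10983 with at least 3 arrays above the table median of 7.61 were tested. Current names came from RefSeq (GRCm38.p6). A linear model of 4 groups over all 24 arrays was fitted in limma 3.58.1 by lmFit and eBayes (R 4.3.3, with version 1.17.8 of data.table), with Benjamini-Hochberg adjustment per comparison at 0.05, and was tested on simulated data. Promoter windows and figures were handled with Python 3.11.15, pandas 2.3.3 and matplotlib 3.10.9. Where arrays of the lower group lay under the table median, a called fold is given as a bound with that value in place of each dimmer level, and none where both groups lay wholly under it.

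The members, gene lists, markers and alternatives were chosen with earlier results of these data known. All members, Gnas, the 3 genes most like each tested member, and examples of each list with the largest changes or of a member's family are named. Gene models without a name, microRNAs, small nucleolar RNAs, immunoglobulin segments and receptors of smell and pheromones did not enter the likeness. Nothing in the labels says whether the adult arrays are of separate animals, so their spread may be in part technical. Array counts limit the precision. The tumours' replicate numbers do not pair the groups (correlations of same-numbered deviations from -0.50 to 0.59), and the closest pair of arrays correlated at 0.990. Alternatives were other summaries of probe sets, other filters and scalings, eBayes and array weight settings, leaving out arrays, strain and naming style of the arrays, a replicate block and a 2-fold minimum.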

Additional observations from a re-analysis of the deposited data

Results flagged for a closer look

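In 4 of the 27 groups of member values checked, 1 array lay far from the others of its group, and each time it was hGFAP tumour 5. Chance alone flags about 1 in 20 such groups, and these 4 come from 1 array. Its Sfrp1 level was 8.55, against 11.63 to 12.30 in the other 7 hGFAP tumours. Its Sfrp2 level was 6.67, against 8.69 to 10.18, and its Nkd1 level was 8.50, against 10.05 to 11.42. Its Lef1 level was 7.48, against 6.16 to 6.76, and was the highest of the 16 tumours. In this tumour the granule precursor markers were low (7.28) and the mature granule neuron markers high (11.24). What this has to do with the member values was not tested.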

How the results depend on the processing

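Among 1215 values of single genes under the alternatives, 1177 kept their direction and their side of the threshold or moved by less than the replicate spread, and 277 of 310 counts stayed within 1.5 times. Counts of genes are given for hGFAP against adult, Oligo1 against adult, hGFAP against developing, Oligo1 against developing, hGFAP against Oligo1 and adult against developing, where the reported counts are 5936, 7713, 3108, 5213, 2076 and 5014. With a 2-fold minimum they were 1943, 3224, 1171, 1934, 266 and 2199. A stricter brightness filter gave 3398, 4238, 1582, 2682 and 2792 (without hGFAP against Oligo1, which stayed within 1.5 times), by its construction testing fewer genes, and left Axin2 and Lef1 untested and 2 members called in Oligo1 against developing. Array weights gave 6751 for hGFAP against developing, 7889 for Oligo1 against developing, 4335 for hGFAP against Oligo1 and 7641 for adult against developing. Leaving out hGFAP tumour 5 and Oligo1 tumour 6 gave 4936 and 1377 for hGFAP against developing and against Oligo1. Tumours 1 to 4 alone gave 4868 for hGFAP against developing, and tumours 5 to 8 alone gave 3266 for Oligo1 against developing and 7 for hGFAP against Oligo1. For hGFAP against Oligo1, a fit of only these groups gave 222, a block of array naming style 886 and a replicate block 181, with 0 members called, and that block changed no call of a member. Renewed quantile normalization there gave 955 higher and 1283 lower, against 1138 and 938. Without embryonic day 15, hGFAP against developing gave 1957. Leaving out single arrays gave 5429 to 7024, 7369 to 7899, 1957 to 4477, 3668 to 5363, 521 to 3174 and 4043 to 4805 genes, and 3 to 4, 4 to 4, 3 to 3, 3 to 4, 0 to 0 and 5 to 6 members. For hGFAP against Oligo1 the counts moved by over 1.5 times without hGFAP tumour 3 (537), 5 (1152), 6 (561) or 7 (3174) and without Oligo1 tumour 1 (521), 2 (1007) or 3 (732). Differences of the tested members that turned sign were called neither in the main test nor in the alternative. For hGFAP against Oligo1 they were Lef1 with renewed quantile normalization (-0.14) and tumours 1 to 4 (-0.0441), Sostdc1 with array weights (0.0048), and Sfrp1 with array weights (0.21), tumours 1 to 4 (0.11) and hGFAP tumour 5 and Oligo1 tumour 6 left out (0.28). For hGFAP against developing they were Sfrp2 with array weights (0.0681) and tumours 1 to 4 (0.15), and Nkd1 with tumours 5 to 8 (-0.18) and without embryonic day 15 (-0.31). For Oligo1 against adult it was Axin2 with tumours 1 to 4 (0.0020). Without single arrays, Nkd1 in hGFAP against developing ranged from -0.31 to 0.39, Sfrp1 in hGFAP against Oligo1 from -0.25 to 0.28 and Axin2 in Oligo1 against adult from -0.10 to 0.0075. Among the untested members, sign changes occurred for Dkk2 in hGFAP against Oligo1 (-0.12 to 0.0726) and for Dkk3 in hGFAP against adult (-0.0176 to 0.22), hGFAP against developing (-0.15 to 0.19) and adult against developing (-0.29 to 0.0520), all by less than the replicate spread. Sostdc1 in hGFAP against adult passed with renewed quantile normalization (-1.79, limma adjusted p = 0.0204). Where no construction shows it, the cause was not tested. Dimness limits Wif1, Dkk2, Dkk3 and Lef1.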

Other observations

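In normal cerebellum, 24 of the 49 other WNT pathway genes were lower and 7 higher in adult than in developing tissue by limma's adjusted p, where 45.7% of all tested genes passed and 20.2% were lower, with a median difference of -0.37, where the median of all tested genes was 0.05. Draxin fell by 4.43 (adjusted p = 3.03e-06), Myc by 3.31 and Nkd2 by 2.01. Wnt5a fell by 1.99, and the LEF relatives Tcf7l2 and Tcf7l1 fell by 1.92 and 1.15. Among the genes that were higher in adult tissue, Wnt7a rose by 2.89 (adjusted p = 4.99e-05), Fzd7 by 1.48, Porcn by 1.25 and Tle2 by 1.24. Of the 10 nuclear pathway genes 7 were lower and 1 higher, and of the 13 cytoplasmic genes 6 were lower and none higher. Nkd2 and Wnt5a had means above the table median only in developing cerebellum, and Wnt7a and Tle2 only in adult cerebellum. Their changes and these counts thus support nothing about the pathway as a set.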
